A study of Mus musculus with 10 samples.

Results

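Neurons that use acetylcholine as transmitter express a small set of genes for making, packaging, retrieving and removing it, and 6 of these genes were followed here in YFP-positive cells of the mouse spinal cord, at e10.5 by the sample titles. They were taken as a list fixed by function: Chat, Slc18a3, Slc10a4, Slc5a7, Ache and Prima1, 6 of the 48961 genes in the counts and of the 17825 with enough counts to test, and all 6 were tested. RNA-seq had been performed on FACS-sorted cells of 5 control and 5 cdKO samples. Control cells carried Olig2-Cre+/- and Rosa26R-YFP+/- together with Oc1+/Flox and Oc2+/Flox, so they too lost 1 copy of each Oc gene wherever Cre was active, and cdKO cells carried Oc1-/Flox and Oc2-/Flox on the same Cre and reporter background. Oc1 and Oc2 encode the OC factors, transcription factors of the Onecut family. Olig2-Cre acts in the motor neuron (MN) progenitor domain, so the sorted cells include progenitors as well as MNs, and the study also saw YFP in V3 interneurons.

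Acetylcholine is the transmitter with which MNs drive skeletal muscle, and the genes for it are switched on early in their differentiation. Choline acetyltransferase (Chat) makes it from choline and acetyl-CoA, the vesicular transporter (Slc18a3) loads it into vesicles, the high-affinity choline transporter (Slc5a7) brings choline back into the terminal, and acetylcholinesterase (Ache) breaks it down once released. Slc10a4 is a vesicle protein found in cholinergic and monoaminergic neurons, and Prima1 encodes the membrane anchor of acetylcholinesterase in the nervous system.

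Chat and Slc18a3 form the cholinergic gene locus, in which the whole of Slc18a3 lies at the 5′ end of Chat on the same strand. On the minus strand of GRCm38, Chat was annotated at chr14:32408203-32465989 and Slc18a3, a single exon, at chr14:32462438-32464850. The RefSeq start sites of the pair lie 1059 bases apart. Their promoter windows are shown at these annotated starts. Exon 1 of Chat, which begins at its RefSeq start, had at most 4 counts in any sample, so use of that start in these cells was not shown. Lower case marks the 250 bases before the RefSeq start and capitals the 50 bases after it, on GRCm38.p6, for Chat at chr14:32465860-32466159 and for Slc18a3 at chr14:32464801-32465100, both on the minus strand.
Chat: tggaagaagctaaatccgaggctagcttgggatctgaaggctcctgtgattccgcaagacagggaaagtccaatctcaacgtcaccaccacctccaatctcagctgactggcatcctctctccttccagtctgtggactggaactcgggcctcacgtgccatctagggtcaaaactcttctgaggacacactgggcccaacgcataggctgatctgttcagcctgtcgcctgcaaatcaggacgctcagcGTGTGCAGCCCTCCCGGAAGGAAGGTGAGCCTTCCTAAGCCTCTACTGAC
Slc18a3: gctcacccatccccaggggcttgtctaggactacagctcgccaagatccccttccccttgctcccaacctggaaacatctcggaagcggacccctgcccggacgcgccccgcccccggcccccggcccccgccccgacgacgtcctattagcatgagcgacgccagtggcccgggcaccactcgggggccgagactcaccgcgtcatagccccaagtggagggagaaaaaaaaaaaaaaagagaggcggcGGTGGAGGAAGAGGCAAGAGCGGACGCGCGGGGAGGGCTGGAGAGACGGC
All 6 genes were matched to a RefSeq promoter window of the same length. On either strand, the Onecut motif ATCAAT was in none of the 6 windows and in 7.54% of 32851 windows genome-wide, the second form ATCGAT was in none and in 0.925%, and the LIM homeodomain motif TAATTA was in none and in 5.29%. The windows of Chat and Slc18a3 differed in GC content, at 55.7% and 67.0%.

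The counts sum to between 63932395 and 107709534 per control sample and between 72315782 and 84249157 per cdKO sample. They are counts of overlaps between reads and parts of exons, and they were scaled with TMM to CPM, the count of a gene relative to the scaled total of its sample, on which 3 counts correspond to between 0.0288 and 0.0591 CPM. All 6 MN markers were expressed, with a summed level between 507.3 and 658.2 CPM in control samples and between 345.2 and 720.6 CPM in cdKO samples. These sums hide opposite directions in control replicate 5, which summed to 515.8 CPM. It had the highest Isl1 of all samples, 347.1 CPM, but the lowest Mnx1 (29.9 CPM), Isl2 (57.9 CPM) and Lhx3 (52.6 CPM) of the controls. Onecut1 (Oc1) ranged from 2.25 to 9.94 CPM in control samples and from 1.03 to 4.30 CPM in cdKO samples, with overlapping groups, and Onecut3, a family member that was not deleted, ranged from 0.330 to 0.683 CPM against 0 to 0.0381 CPM, without overlap. Oc2 leaves truncated transcripts in mutant tissue according to the study, so its counts do not check the genotypes. Before the results, 2 libraries that stood apart have to be named. Over 7910 genes, the median share of a gene's counts that lay past the midpoint of its exons, on the 3′ side, was 66.0% in cdKO replicate 5. It was 49.9% in control replicate 5 and 43.9% to 45.7% in the remaining 8 samples. Control replicate 5 had the lowest sum of pan-neuronal markers, 948.9 CPM where the other controls had 2160 to 4909 CPM, and the highest sum of progenitor markers, 2188 CPM where they had 776.6 to 1374 CPM. For each of the 6 genes, a log2 fold change without 1 or both of these samples is given beside the full one. Further values are in the closing sections.

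None of the 6 cholinergic genes passed the test between control and cdKO cells, and for 4 of them, Chat, Slc18a3, Slc10a4 and Slc5a7, the estimated difference was smaller than its standard error. With the edgeR quasi-likelihood test and Benjamini-Hochberg correction across the tested genes, adjusted p-values ran from 0.939 to 0.998. In this fit Onecut3, whose ranges did not overlap, did not pass either (log2 fold change -5.08, edgeR adjusted p = 0.110). Onecut1 did not pass (log2 fold change -1.11, edgeR adjusted p = 0.939). These p-values therefore do not show that levels were equal between the groups. For both Onecut genes, the study's own RNA-seq table gave lower levels in cdKO cells. Their adjusted p-values there were under 0.05, from a test that the study does not name. In the edgeR fit here, the share of all 17825 genes with an adjusted p under 0.05 was 0%. At an unadjusted p under 0.05 the test gave 741 genes higher in cdKO cells, 4.16% of those tested, and 146 lower, 0.819%. Without cdKO replicate 5 it gave 109 higher and 318 lower. Other tools called from 0 to 20 genes after adjustment (DESeq2's Wald test 20, limma-voom 3, limma-voom with sample quality weights 13), none of them among the 6. The log2 fold changes, cdKO over control, ran from -0.18 for Slc10a4 to 1.69 for Prima1, with 4 above and 2 below 0 and a median of 0.23, beside a median of -0.018 over all genes tested. Control and cdKO ranges overlapped for all 6 genes, where 0.404% of the genes tested had ranges that did not. In bulk RNA, fewer cells of a type and less RNA per cell cannot be told apart, so these levels hold for the sorted population.

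**Figure D1:**
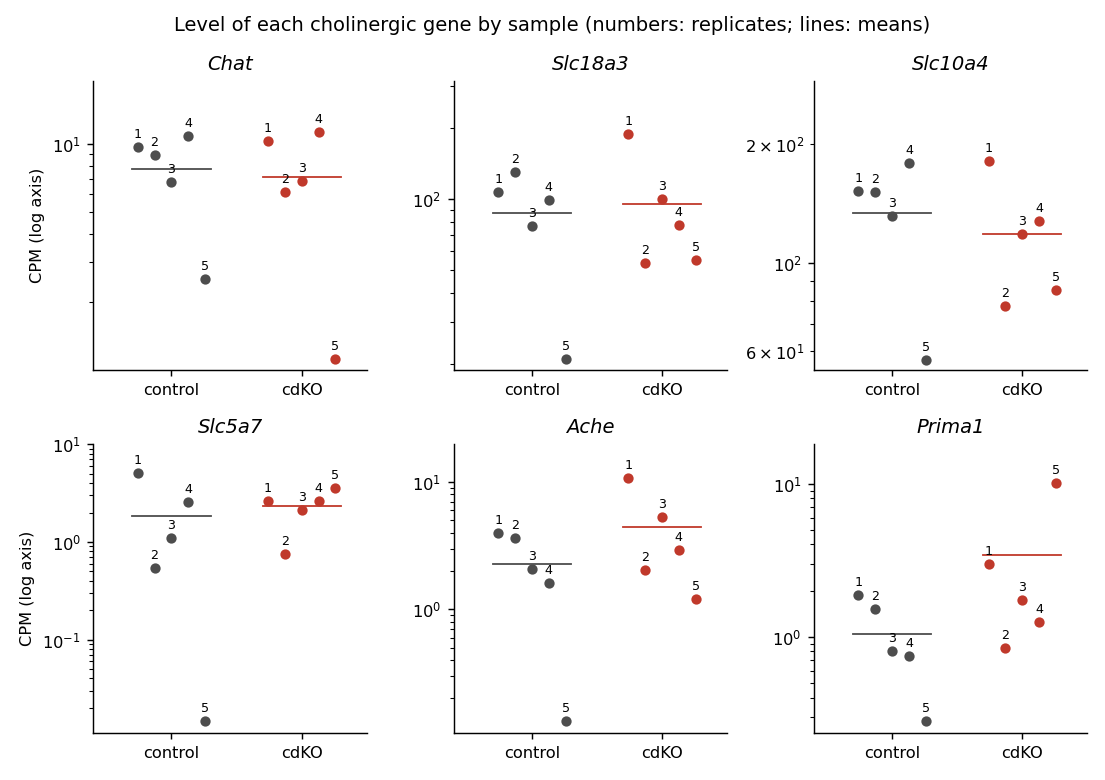
CPM of each cholinergic gene in the 5 control and 5 cdKO samples, on a log axis for each gene, with points numbered by replicate and lines at the group means. Control replicate 5 is the lowest control for all 6 genes, the groups overlap for each gene, and cdKO replicate 5 is the lowest sample for Chat and the highest for Prima1.

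Synthesis was read from Chat. It stood at 9.67, 8.94, 6.81, 10.9 and 2.54 CPM in control replicates 1 to 5 and at 10.3, 6.14, 6.86, 11.3 and 1.12 CPM in cdKO replicates 1 to 5. Replicate 5 was low in both groups, and the other 8 samples lay between 6.14 and 11.3 CPM. The means were 7.77 ± 3.28 CPM in control and 7.15 ± 4.02 CPM in cdKO samples (SD, n = 5 each). The log2 fold change was -0.12 (SE 0.53, edgeR adjusted p = 0.998, exact two-sided permutation p = 0.675), a difference smaller than the spread within either group. Without cdKO replicate 5 the log2 fold change was 0.15, and without control replicate 5 it was -0.34.

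Coverage along Chat set cdKO replicate 5 apart. Of the 16 exon intervals of the gene, 11 had no count in this sample. It had 57 counts on Chat, of which 48 were on the last exon, 84.2%, whereas the last exon held between 11.8% and 17.2% in the other 9 samples. Its last-exon share was also the highest for Slc10a4, at 76.5% against 55.7% to 57.9% in the other samples, and it was 91.3% for Slc5a7 and 60.7% for Ache. For Prima1 it was 67.0%, within the range of the other samples. The part of this 3′ coverage in the low Chat level of the sample was not tested.

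**Figure D2:**
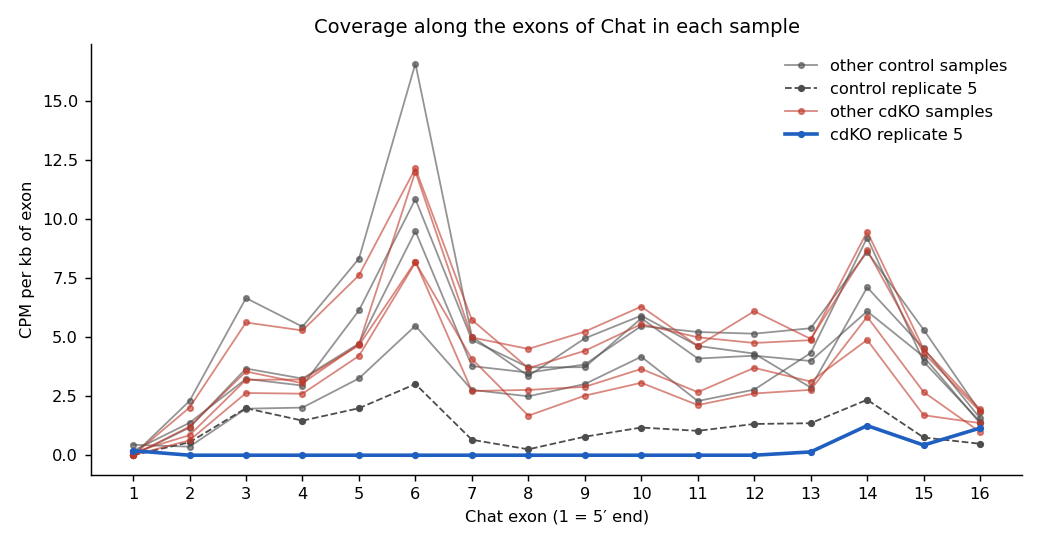
CPM per kb of each of the 16 exon intervals of Chat, numbered from the 5′ end, with a line for every sample. cdKO replicate 5 lies at or near 0 up to exon 12 and joins the other samples only at the last exon, and control replicate 5 is low along the gene but covered throughout.

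Slc18a3 had the higher counts of the locus. Its levels were 106.5, 130.3, 76.9, 99.2 and 20.9 CPM in control replicates 1 to 5 and 188.9, 53.6, 100.1, 77.7 and 54.8 CPM in cdKO replicates 1 to 5. The highest sample was cdKO replicate 1 and the lowest control replicate 5. The means were 86.8 ± 41.4 CPM in control and 95.0 ± 55.8 CPM in cdKO samples (SD, n = 5 each), with a log2 fold change of 0.13 (SE 0.46, edgeR adjusted p = 0.998, exact permutation p = 0.754). The sign was not stable: it was -0.12 without control replicate 5 and -0.28 without cdKO replicate 1.

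No bin of exon sequence was shared by Chat and Slc18a3, so their exon counts could be set side by side within each sample. Slc18a3 lies between exons 1 and 2 of Chat on the same strand. Reads from unspliced Chat RNA in that stretch would be counted as Slc18a3, and the counts cannot tell them apart. Per kb of exon, the ratio of Slc18a3 to Chat was 12.8, 17.0, 13.1, 10.6 and 9.59 in control replicates 1 to 5 and 21.3, 10.2, 17.0, 8.02 and 56.8 in cdKO replicates 1 to 5. Apart from cdKO replicate 5, whose Chat counts lay mostly on the last exon, the samples ran from 8.02 to 21.3. The mean log2 ratio was 0.44 higher in cdKO samples (exact permutation p = 0.405). Set against the last exon of Chat alone, an alternative chosen after seeing the data, the ratio was 24.0, 40.0, 22.4, 26.3 and 17.9 in control samples and 42.3, 22.6, 30.5, 16.6 and 19.8 in cdKO samples. The difference in mean log2 of this per-kb ratio, with nothing added, was -0.015 (exact permutation p = 0.960). Here cdKO replicate 5 lay within the range of the others.

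**Figure D3:**
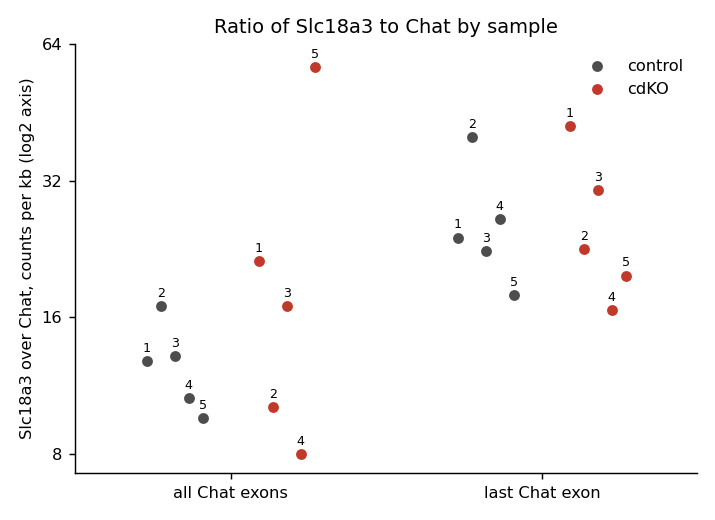
Ratio of Slc18a3 to Chat counts per kb in each sample, on a log2 axis, over all Chat exons (left) and over the last Chat exon (right), with points numbered by replicate. Over all exons cdKO replicate 5 stands at 56.8, above the 8.02 to 21.3 of the other samples, and over the last exon it stands at 19.8, among them.

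Slc10a4, on the plus strand at chr5:73006883-73012955, was the most abundant of the 6. It was at 152.2, 151.3, 131.3, 178.9 and 56.8 CPM in control replicates 1 to 5 and at 181.4, 77.9, 118.6, 127.6 and 85.4 CPM in cdKO replicates 1 to 5. The lowest samples were control replicate 5 and cdKO replicate 2, and the means were 134.1 ± 46.4 CPM in control and 118.2 ± 41.2 CPM in cdKO samples (SD, n = 5 each). The log2 fold change of -0.18 (SE 0.34, edgeR adjusted p = 0.997, exact permutation p = 0.722) did not exceed that spread. It was -0.38 without control replicate 5 and -0.088 without cdKO replicate 5.

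Choline uptake was at a far lower level. Slc5a7, on the minus strand at chr17:54273590-54299034, had 5.05, 0.537, 1.09, 2.55 and 0.0148 CPM in control replicates 1 to 5 and 2.63, 0.750, 2.10, 2.61 and 3.61 CPM in cdKO replicates 1 to 5. Control replicate 5 rested on 1 count, under the floor of 3, against 56 to 503 counts in the other 9 samples. The control samples thus covered a far wider range than the cdKO samples, and the group means were 1.85 ± 2.02 and 2.34 ± 1.04 CPM (SD, n = 5 each). The log2 fold change was 0.34 (SE 0.84, edgeR adjusted p = 0.998, exact permutation p = 0.357). Without control replicate 5 it was 0.016, and with replicate 5 of both groups left out it was -0.20. With limma-voom it was 1.44 (unadjusted p = 0.198).

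For breakdown and anchoring, the edgeR fit gave the largest log2 fold changes of the 6 genes, though neither gene passed the test. Ache, on the plus strand at chr5:137287519-137294466, stood at 3.97, 3.64, 2.07, 1.60 and 0.133 CPM in control replicates 1 to 5 and at 10.7, 2.05, 5.31, 2.93 and 1.20 CPM in cdKO replicates 1 to 5. The mean was 2.28 ± 1.57 CPM in control and 4.44 ± 3.82 CPM in cdKO samples (SD, n = 5 each), with cdKO replicate 1 the highest and control replicate 5, with 9 counts, the lowest. The log2 fold change was 0.96 (SE 0.72, edgeR unadjusted p = 0.207, adjusted p = 0.997, exact permutation p = 0.302). It was 0.33 without cdKO replicate 1 and 0.65 without control replicate 5. One bin of Ache, which held at most 2 counts in any sample, is also overlapped by a long non-coding RNA gene, Gm42456.

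Prima1, on the minus strand at chr12:103196908-103242150, was at 1.88, 1.52, 0.808, 0.746 and 0.281 CPM in control replicates 1 to 5 and at 2.999, 0.845, 1.75, 1.24 and 10.2 CPM in cdKO replicates 1 to 5. All 5 cdKO samples were above the control median of 0.808 CPM, but the ranges overlapped, and cdKO replicate 5 was more than 3 times as high as any other sample. The means were 1.05 ± 0.641 and 3.40 ± 3.86 CPM (SD, n = 5 each). The log2 fold change was 1.69 (SE 0.69), with an edgeR unadjusted p of 0.0290, an adjusted p of 0.939 and an exact permutation p of 0.135. It was the only one of the 6 genes with an unadjusted p under 0.05. Without cdKO replicate 5 the log2 fold change was 0.70 with an edgeR unadjusted p of 0.220, and without replicate 5 of both groups it was 0.45 with an unadjusted p of 0.343.

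**Figure D4:**
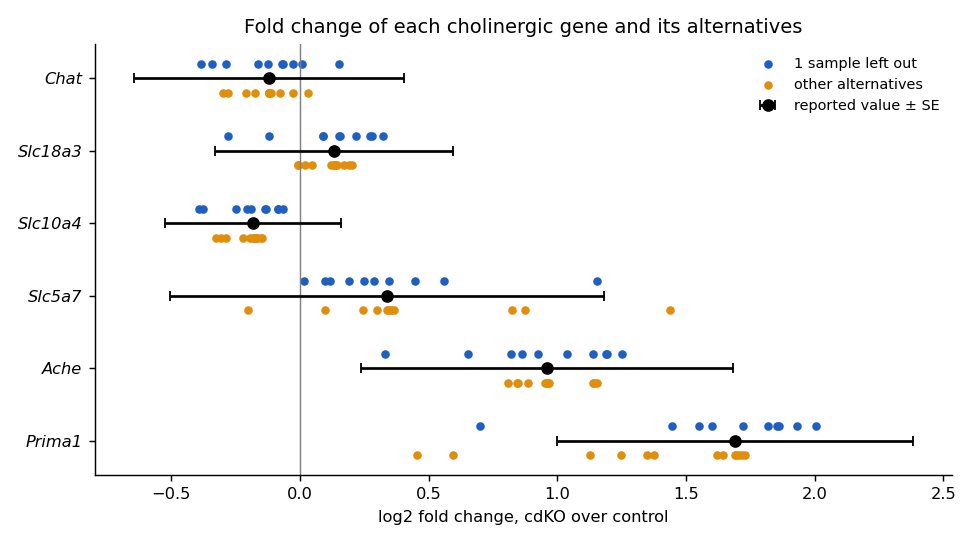
Log2 fold change, cdKO over control, of each cholinergic gene, with black points and bars for the edgeR value ± SE, blue points for fits with 1 sample left out and orange points for the other alternatives. Chat, Slc18a3 and Slc5a7 have points on both sides of 0, Slc10a4 lies below 0 and Ache and Prima1 above 0 in all of the fits, and Prima1 falls from 1.69 to 0.70 when cdKO replicate 5 is left out.

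Because counts were made on parts of exons, each exon could also be compared on its own. Of 42 exon intervals, 35 had at least 10 counts. None of these had control and cdKO ranges apart, as 0.349% of 163227 such intervals of all genes did, and 1 of 35 had an exact permutation p under 0.05, as 2.52% of all intervals did. This was the last exon of Ache, chr5:137294117-137294466, at 0.336 ± 0.234 CPM in control and 0.780 ± 0.262 CPM in cdKO samples (SD, n = 5 each, exact permutation p = 0.0238, not adjusted for the 35 intervals). Without cdKO replicate 1, 4 or 5 its exact permutation p was 0.0556 in each case, and without replicate 5 of both groups it was 0.0857. The sample with 60.7% of its Ache counts on this exon was cdKO replicate 5. This exon joins bins of 344, 1 and 5 bases, so a read at its end can be counted more than once.

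Per kb of exon, the genes spanned a wide range of levels in control samples. Mean levels were 63.7 CPM per kb for Slc10a4, 36.0 for Slc18a3, 2.77 for Chat, 0.835 for Prima1, 0.493 for Ache and 0.357 for Slc5a7. Slc10a4 was above Slc18a3 in 10 of 10 samples, although their ranges overlapped across samples. Between Slc18a3 and Chat lay a step of 13.0 times the mean, with no overlap in control samples. Prima1 was above Ache in 10 of 10 samples and Ache above Slc5a7 in 7 of 10, and the ranges of these neighbours overlapped. Because a read is counted on each bin it touches, the per-kb level of a gene with many short bins, such as Chat, is raised relative to that of a single-exon gene.

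The genes did not vary together as 1 group across samples. As deviations from the group means of log2 CPM over the 10 samples, which share their library, depth and composition, Slc18a3 followed Slc10a4 (Pearson's r = 0.96, Spearman's rho = 0.92) and Ache (r = 0.95, rho = 0.94). With the 2 samples farthest from the median left out, r was 0.88 and 0.89. Ache followed the mean of the 6 MN markers most closely (r = 0.98, rho = 1.0, and r = 0.96 with 2 samples left out). Slc5a7 went instead with the mean log2 level of the 7 pan-neuronal markers (r = 0.94, rho = 0.93, and r = 0.84 with 2 samples left out) and less with the MN markers (r = 0.47). Prima1 gave r = 0.78 with the pan-neuronal and r = 0.11 with the MN markers, but with 2 samples left out these became r = 0.71 and r = 0.83, so the contrast between the marker lists rested on those samples. Chat and Slc18a3, the pair of the locus, gave r = 0.72, and r = 0.41 with 2 samples left out. These correlations describe 10 libraries, and differences between them were not tested.

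**Figure D5:**
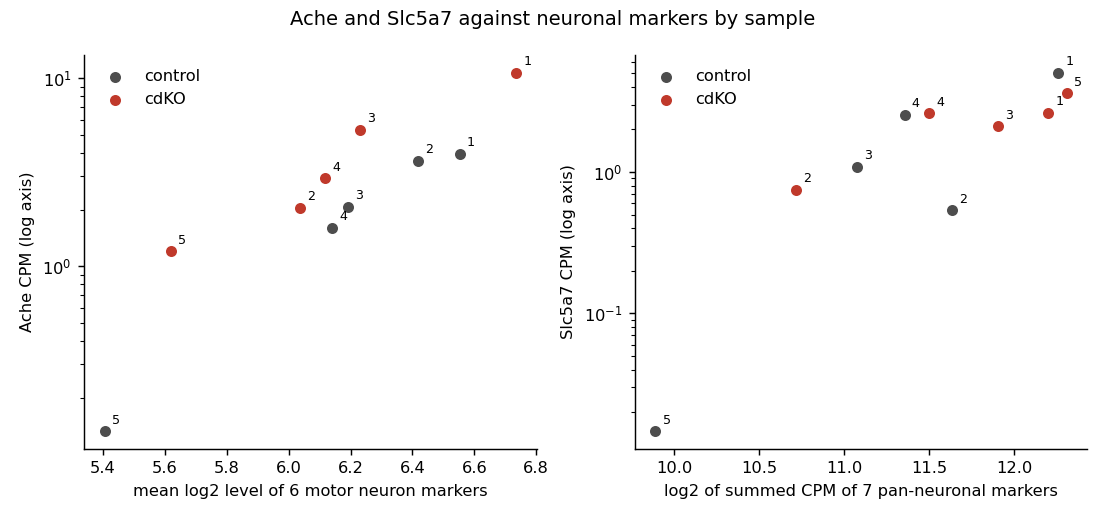
Ache CPM against the mean log2 level of 6 MN markers (left) and Slc5a7 CPM against the log2 of the summed CPM of 7 pan-neuronal markers (right), with vertical log axes and points numbered by replicate. In the left plot cdKO replicate 1 is highest and control replicate 5 lowest on both axes, and in the right plot control replicate 5 is lowest on both.

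The genes whose deviations were most like those of Chat were Prepl, Abr, Gm9748, Capn2 and Slc37a3, with Pearson's r from 0.980 to 0.989 over the 10 samples. For Slc18a3 they were Retreg2, Sarm1, Ap3b2, Palm and Pfkm, with r from 0.989 to 0.996, and for Slc5a7 they were Pla2g7, Dab1, Gm16096, Gria1 and Clmp, with r from 0.958 to 0.975. No gene was in more than 1 of the 3 lists of 5, which is of little weight for lists this short. These r values are the highest among all tested genes. They were not recomputed without replicate 5 of either group, the samples in which Chat was lowest.

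Marker lists moved with these levels in some samples. MN markers averaged a log2 level of 6.04 to 6.74 in 8 samples, and less in control replicate 5 (5.41) and cdKO replicate 5 (5.62). Pan-neuronal markers summed to 5081 CPM in cdKO replicate 5, the sample with the highest Prima1, and to 1687 to 4707 CPM in the other cdKO samples. Erythroid markers summed to 0.872 to 18.5 CPM in control samples and to 2.60 to 63.4 CPM in cdKO samples, with the highest value again in cdKO replicate 5, and none of the 6 was at 0 in every sample. A fit with the MN marker mean as covariate is given in the closing sections. The part of the other lists in the differences was not tested.

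Around the 6 genes, 48 other genes of the cholinergic pathway were examined, of which 31 had enough counts to test. After adjustment none had a p under 0.05. Before adjustment, at p under 0.05, 1 was higher and 1 lower, beside the 4.16% and 0.819% of all genes, and the median log2 fold change was -0.089, with 13 above and 18 below 0. None of 8 tested genes for choline supply and phosphocholine synthesis and none of 6 for acetyl-CoA supply had an unadjusted p under 0.05. Acly, which makes cytosolic acetyl-CoA, was the most abundant of them at 1249 ± 599 CPM in control and 1175 ± 566 CPM in cdKO samples (SD, n = 5 each). Pdhb, a subunit of pyruvate dehydrogenase, had 345.0 ± 76.1 and 373.2 ± 45.6 CPM, and the mitochondrial citrate carrier Slc25a1 had 238.1 ± 102.7 and 315.6 ± 126.3 CPM. For choline, the kinases Chkb and Chka had 68.6 ± 18.0 and 62.0 ± 4.28 CPM in control samples and 60.1 ± 7.82 and 56.0 ± 17.4 CPM in cdKO samples. The choline transporter-like gene Slc44a2 had 51.3 ± 22.5 and 41.5 ± 20.5 CPM. Bche, the second cholinesterase, had 3.84 ± 2.19 and 2.63 ± 1.79 CPM (log2 fold change -0.55, SE 0.59), and Colq, the collagen anchor of acetylcholinesterase in muscle, had too few counts to test.

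The receptor genes for acetylcholine with enough counts to test were nicotinic ones. Of 16 nicotinic subunit genes, 8 were tested and none had an unadjusted p under 0.05. Chrna4 was the most abundant at 60.4 ± 24.6 CPM in control and 39.4 ± 16.6 CPM in cdKO samples (SD, n = 5 each, log2 fold change -0.62, SE 0.37, edgeR adjusted p = 0.962). Chrna3 had 16.3 ± 6.14 and 16.4 ± 6.69 CPM, and Chrnb2 had 10.2 ± 3.21 and 11.6 ± 4.31 CPM. None of the 5 muscarinic receptor genes had enough counts to test, and they summed to between 0.0814 and 0.216 CPM in control and between 0.119 and 0.434 CPM in cdKO samples.

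Tmem35a, which encodes a chaperone of nicotinic receptors, was the pathway gene that was higher at an unadjusted p under 0.05. It stood at 10.4, 8.35, 4.52, 6.14 and 3.18 CPM in control replicates 1 to 5 and at 14.8, 7.86, 11.2, 8.91 and 15.6 CPM in cdKO replicates 1 to 5. The groups overlapped, since cdKO replicates 2 and 4 lay under control replicate 1. Its log2 fold change was 0.84 (SE 0.37, edgeR unadjusted p = 0.0388, adjusted p = 0.939). The unadjusted edgeR p rose to 0.0756 without control replicate 5, to 0.0771 without cdKO replicate 5 and to 0.123, with a log2 fold change of 0.53, without both. Of the same list, Ly6h, a modulator of these receptors, had a log2 fold change of 1.11 (edgeR unadjusted p = 0.0556) and the chaperone gene Ric3 one of -0.15. In cdKO replicate 5 the list of 4 summed to 185.6 CPM, against 52.3 CPM in the lowest cdKO sample.

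Isl1, a LIM homeodomain factor of MNs that activates cholinergic genes, was the one that was lower. It was at 252.8, 134.9, 207.8, 181.7 and 347.1 CPM in control replicates 1 to 5 and at 95.9, 164.0, 97.8, 159.2 and 117.8 CPM in cdKO replicates 1 to 5. Control replicate 2 lay under cdKO replicates 2 and 4, and the other 4 controls were above every cdKO sample. The log2 fold change was -0.82 (SE 0.31), with an edgeR unadjusted p of 0.0180, an adjusted p of 0.939 and an exact permutation p of 0.0317. Without control replicate 5 it was -0.62 with an edgeR unadjusted p of 0.0544, and without replicate 5 of both groups it was -0.60 with an unadjusted p of 0.0428. Control replicate 5, which had the highest Isl1, had the lowest Slc18a3, Slc10a4, Slc5a7, Ache and Prima1 of all 10 samples. By immunostaining at e10.5, the study reported strongly decreased Isl1 in laterally located MNs of cdKO embryos. That is a protein measure in part of the cells. Lhx3, the partner of Isl1 in MNs, had 96.7 ± 29.4 and 110.1 ± 56.1 CPM (SD, n = 5 each), with an edgeR unadjusted p of 0.644.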

How the data were processed

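RNA-seq counts from FACS-sorted YFP-positive cells were analysed in 10 samples, 5 per group, grouped by the genotype in the labels. Titles give e10.5 throughout, whereas the stage in the descriptions goes from e10.5 in control replicate 1 to e10.9 in control replicate 5 and from e10.10 to e10.14 in cdKO samples, so the labels conflict on age, and the titles were used. The authors deposited raw, unnormalized counts per exon bin. GRCm38, bcl2fastq 2.17, Trimmomatic 0.36, STAR 2.5.2b, Subread 1.5.2 and DESeq2 are named in the submitters' processing notes, without roles. The library is described as ultra-low input in the methods and as NEBNext Ultra in the labels. Reads were counted on every bin they overlap (3714 bins of at most 5 bases with neighbours on either side held a median of 1.02 times the counts of the lower neighbour) and without strand (16 of 16 intervals listed on both strands were equal), so totals are overlaps, not reads, and limits of 3 counts cover counting error only.

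Bins were summed to genes with GENCODE M21. 4001 bins of joined gene units that could not be given to 1 gene (1.24% of counts) were left out, none of them of the 6 genes. Genes were filtered (filterByExpr, minimum count 10), TMM-scaled and tested with edgeR 4.0.16 (quasi-likelihood, R 4.3.3, Benjamini-Hochberg). The SE is the size of the log2 fold change divided by the square root of F. Exact two-sided permutation tests compared means of log2(CPM + 0.5) over 252 arrangements (smallest p 0.00794). limma 3.58.1, DESeq2 1.42.0, other scalings and filters, and leaving out samples were alternatives. Fits were tested on simulated data, and no samples were duplicates. The labels do not say that samples are separate embryos, so p-values measure the spread between these samples, which may be technical.

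The genes, lists and tests were chosen with earlier results of these data known. Genes named are the 6, the pathway genes at an unadjusted p under 0.05 or among the 3 most abundant of their list, the 5 genes most correlated with Chat, Slc18a3 and Slc5a7, and the Oc genes. Not every gene that meets this rule is reported here.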

Additional observations from a re-analysis of the deposited data

Results flagged for a closer look

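In 26 groups of 5 samples (the CPM of the 6 genes, the shares of counts on last exons, the Slc18a3 to Chat ratio and the 3′ share of all genes), a sample stood far from the other 4 in 5 cases. For independent, normally distributed groups chance gives about 1 in 20, or 1.3 of 26. The 26 groups reuse the same 10 libraries and are not independent, so an excess over this rate was not tested. Of the 5 cases, 4 were in cdKO replicate 5. Its Prima1 level was 10.2 CPM against 0.845 to 2.999 CPM in the other cdKO samples. Its last exon held 84.2% of the Chat counts against 13.2% to 16.3%, and 76.5% of the Slc10a4 counts against 56.5% to 57.2%. Over all genes examined, the median share of counts past the midpoint of a gene was 66.0% in this sample against 44.1% to 45.4%. The remaining case was control replicate 5, in which 33.3% of the Ache counts, 9 in all, were on the last exon, against 12.7% to 16.1% in the other controls.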

How the results depend on the processing

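None of the 6 genes had an adjusted p under 0.05 under any alternative run. Slc10a4, Ache and Prima1 kept their direction in all of them. Leaving out 1 sample gave log2 fold changes from -0.38 to 0.15 for Chat, -0.28 to 0.32 for Slc18a3, -0.39 to -0.066 for Slc10a4, 0.016 to 1.15 for Slc5a7 (1.44 with limma-voom), 0.33 to 1.25 for Ache and 0.70 to 2.00 for Prima1. The direction turned for Chat on its single highest bin (0.030), for Slc18a3 with library size alone (-0.0065) and limma-voom with quality weights (-0.0083), and, among alternatives chosen after seeing the data, for Slc5a7 without replicate 5 of both groups (-0.20). In the permutation test, leaving out 1 sample gave differences from -0.58 to 0.24 for Chat and -0.26 to 0.39 for Slc18a3, which was -0.11 without replicate 5 of both groups. The ratio of Slc18a3 to Chat differed by -0.016 on the log2 scale without replicate 5 of both groups and by -0.015 over the last Chat exon. Moving shared bins between Chat and Slc18a3 was not run, since none are shared. The causes were not tested. The number of the 6 genes with an unadjusted p under 0.05 was 0 in place of 1 with limma-voom, with and without quality weights, without replicate 5 of both groups, and 0 to 1 with 1 sample left out. With the MN marker mean as covariate it was 1, but the gene was Ache (log2 fold change 1.14, edgeR unadjusted p = 0.00412, adjusted p = 0.887), in a fit with 743 of 17825 genes under 0.05 before adjustment. Of the other pathway genes, in place of 2, 5 of 45 passed unadjusted with DESeq2's Wald test (4.73% of all genes did), 6 of 31 with quality weights (8.58%), 5 of 46 without a filter (7.02%), 1 of 27 on the single highest bin (4.03%), 4 of 31 without replicate 5 of both groups (2.42%) and 1 to 4 with 1 sample left out. The number of exons was 0 to 3 with 1 sample left out. Isl1 was under 0.05 unadjusted in 22 of 23 alternatives, the exception being without control replicate 5, and Tmem35a in 14 of 23. Leaving out cdKO replicate 5 changed the split of all genes at that level from 741 higher and 146 lower to 109 and 318.

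With the replicate number as a block, 0 of the 6 genes had an unadjusted p under 0.05, and Prima1 had a log2 fold change of 1.13. The pairing is only a number: correlations of same-numbered samples ran from -0.32 to 0.43, and 4 of 10 samples correlated best with their own number. Across all genes the block gave 462 unadjusted calls in place of 887. Slc5a7 and Ache could not be tested with at least 10 counts required in every sample, since control replicate 5 has fewer. At 1 to 9 counts in that sample, their values there are imprecise. Its total of 68569760 counts was above the 63932395 of control replicate 4, and the cause of the low counts was not tested.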
